A study of Homo sapiens with 16 samples.

Results

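The genes described here make cholesterol and fatty acids and are known as targets or regulators of the sterol regulatory element-binding proteins (SREBPs). They were chosen by gene symbol as a set of 35, out of 61228 gene rows in each deposited count table. The set holds 19 enzymes of the sterol arm, 9 enzymes of the fatty acid arm, 5 genes that control SREBP and 2 genes of sterol transport. Of the 35, 32 had 20 or more counts over 12 libraries, namely 17 of the sterol arm, 8 of the fatty acid arm, all 5 control genes and both transport genes. The 3 below that limit were EBP with 2 counts, GGPS1 with 1 and FADS1 with 0, and the lowest above it were CYP51A1 with 153 and ABCA1 with 343. All 32 also passed edgeR's filter on low counts.

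The RNA came from 16 cultures of Caco-2 grown in a villus-on-chip device that magnets can move. Caco-2 is an established line from a human colon carcinoma, and its cells form a layer like that of the gut lining. Each of 4 tables, coded NOS1, VOS1, VOS2 and IBD, held 4 libraries that the series design calls biological replicates. IBD holds the chips given an induction of inflammatory bowel disease, with neither agent nor dose stated in the labels, and NOS1 was taken as the static control because it is the one code left. VOS1 and VOS2 hold the physiological and the pathological swing, and no label ties either code to either swing or says which swing the induced chips received. All groups are thus cultures of 1 established cell line with no stated change of genotype. No label says whether the replicates came from separate chips or days, so p-values measure only the spread between these libraries.

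Total counts were between 15078620 and 20609117 in the 12 libraries of NOS1, VOS2 and IBD, whose ranges overlap, and between 21868713 and 28148186 in VOS1. Intestinal epithelial markers carried the label of the cell line: 14 of 15 reached 1 CPM (the count scaled to a library total of 1000000) in at least 1 library, and their sum lay between 10422 and 20894 CPM. The epithelial marker that did not was CDX1, at most 0.103 CPM. The sums of 9 fibroblast, 8 endothelial and 10 leukocyte markers lay between 27.7 and 124 CPM, 19.1 and 36.2 CPM, and 6.24 and 16.3 CPM. Of these markers 5, 3 and 3 reached 1 CPM in at least 1 library. The highest values were 102 CPM for COL1A1, 23.4 CPM for PECAM1 and 11.2 CPM for CSF1R, while THY1, KDR and FCGR3A had 0 counts in all 16 libraries. NOS1 libraries 1 and 4 stood apart in KRT7, VIM and CD44, 3 genes listed because they vary there, whose median difference from the mean of the 8 NOS1 and VOS2 libraries was 2.25 and 2.00 on the log2(CPM + 1) scale, against -1.64 to 0.12 in the other 6. IBD libraries 3 and 4 stood apart in hypoxia genes, and the counts below are also given without either pair. VOS1 was counted over gene features with a median length of 16.2% of those in the other tables, and it is shown apart with no test against them.

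Cells make cholesterol from acetyl-CoA by way of mevalonate, farnesyl diphosphate, squalene and lanosterol, and make fatty acids from the same acetyl-CoA. SREBPs are membrane-bound transcription factors: SCAP escorts them from the endoplasmic reticulum when sterols are scarce, INSIG proteins hold SCAP back when sterols are plentiful, and the released part of SREBP switches on the enzymes. SREBF2 is known mainly for the sterol genes and SREBF1 for the fatty acid genes, and enterocytes are known to make cholesterol as well as to absorb it.

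The members that rose in IBD were mostly enzymes of the sterol arm, though 10 of the 17 tested sterol genes did not pass against VOS2 and 9 of 17 did not pass against NOS1. The fold change was above 0 for 16 of the 17 in each comparison, PMVK being the other one. The genes for the SREBPs themselves did not pass. In IBD against VOS2, 7 of the 32 tested members rose and 0 fell (edgeR's quasi-likelihood test, Benjamini-Hochberg adjusted p under 0.05). Among all 14773 genes tested, 2.32% rose and 2.24% fell. All 7 were sterol genes, 7 of 17 in that arm against 0 of 8 fatty acid genes, 0 of 5 control genes and 0 of 2 transport genes. In IBD against NOS1, 10 of 32 rose and 0 fell, against 2.8% and 3.01% of all genes, and the 10 were 8 sterol genes, the control gene INSIG2 and the fatty acid gene SCD. The comparisons share the IBD libraries, so the overlap of their calls is not a second observation. In these bulk cultures more or fewer expressing cells and more or less RNA per cell cannot be told apart. No label states how the counting treated strand, so counts of the 24 members that overlap another gene in GENCODE v29 are less certain than those of the 11 that overlap none. Among the 11 are SQLE, MSMO1, NSDHL, HSD17B7, INSIG2 and SCD. SC5D is also among them, but its length in NOS1, VOS2 and IBD was 20730 bases against a span of 16242, so its overlap is less certain.

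The median log2 fold change of the 17 sterol genes was 0.39 against VOS2 and 0.36 against NOS1. For the 8 fatty acid genes it was 0.16 and 0.09, and for all genes tested -0.01 and -0.02. The difference between the arms was not itself tested. Read as ranges, 11 members lay higher in all 4 IBD libraries than in all 4 VOS2 libraries and 1, PMVK, lay lower, against 4.45% and 8.3% of all genes. Against NOS1, 7 lay wholly higher and 0 wholly lower, against 4.21% and 6% of all genes. At an unadjusted p under 0.05, 18 members were higher and 0 lower against VOS2, where 8.86% and 9.8% of all genes were. Against NOS1 19 were higher and 1, PMVK, lower, where 9.73% and 12.7% of all genes were. With DESeq2, 12 members rose in each comparison and 0 fell, while 3.88% of all genes rose and 3.38% fell against VOS2, and 4.26% and 4.78% against NOS1.

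**Figure D1:**
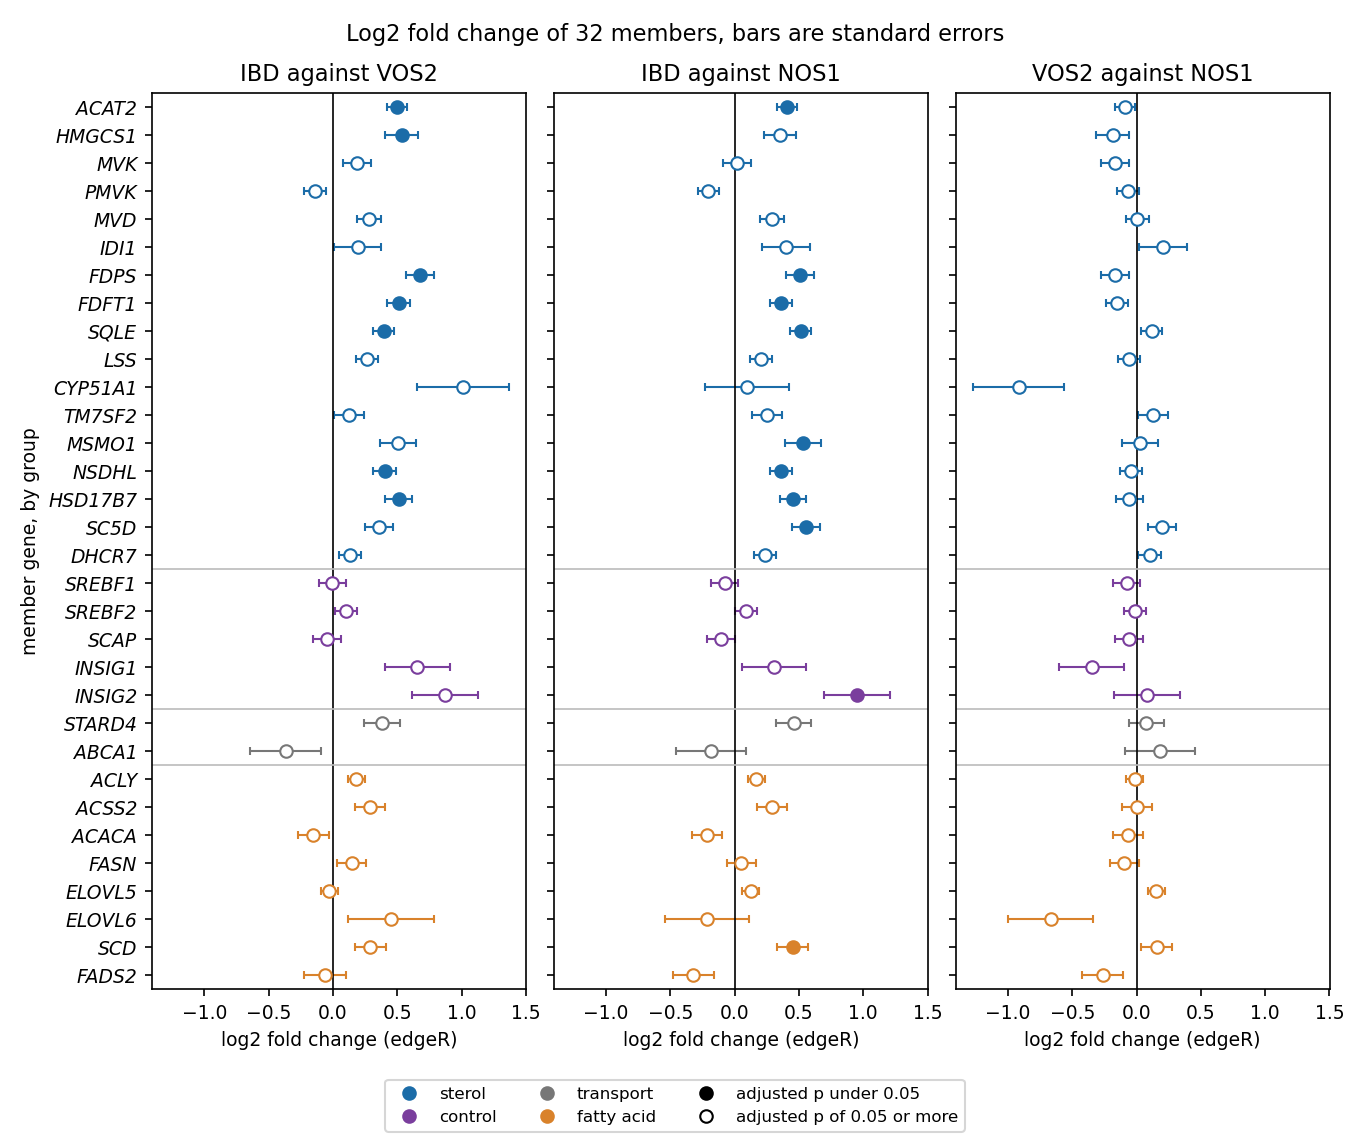
Log2 fold change (x axis) of the 32 tested members (rows, coloured by group) in 3 comparisons, with standard errors as bars and filled points for an adjusted p under 0.05. Filled points number 7 in IBD against VOS2, 10 in IBD against NOS1 and 0 in VOS2 against NOS1, and all lie to the right of 0.

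In the mevalonate pathway ACAT2, HMGCS1 and FDPS rose in at least 1 of the comparisons with IBD. ACAT2, which joins acetyl-CoA into acetoacetyl-CoA, stood at 189.9, 193, 192 and 233 CPM in IBD libraries 1 to 4, at 148, 145, 151 and 139.5 CPM in VOS2, with 164, 150.4, 150.1 and 155 CPM in NOS1. Every IBD library lay above all 8 others, and the first 3 IBD libraries were close together below the fourth. The log2 fold change was 0.50 ± 0.08 (SE, edgeR adjusted p = 0.00201) against VOS2 and 0.41 ± 0.08 (adjusted p = 0.00929) against NOS1, and both calls held in all 24 alternative analyses. By GENCODE v29, 14.7% of the ACAT2 span is shared with other genes, of which SOD2 and TCP1 are coding.

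HMGCS1, the cytosolic HMG-CoA synthase, stood at 264, 261, 341 and 322 CPM in IBD, 209.9, 224, 196 and 206 CPM in VOS2, with 304, 185, 211 and 249 CPM in NOS1. IBD lay above all VOS2 libraries but overlapped NOS1, where library 1 was high. The change was 0.54 ± 0.13 (edgeR adjusted p = 0.0279) against VOS2 and did not pass against NOS1 at 0.35 ± 0.13 (adjusted p = 0.116). The call against VOS2 was lost in 10 of 24 alternatives.

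FDPS, which makes farnesyl diphosphate, the branch point to sterols and prenylated proteins, stood at 192, 166, 246 and 239 CPM in IBD, 131, 132, 142 and 132 CPM in VOS2, with 169, 149.7, 135 and 149.9 CPM in NOS1. IBD libraries 3 and 4 were the highest, and IBD library 2 lay just below NOS1 library 1. FDPS had a log2 fold change of 0.68 ± 0.11 against VOS2 (edgeR adjusted p = 0.00262), the largest of the 7 called members, and of 0.51 ± 0.11 against NOS1 (adjusted p = 0.0173). Its call against VOS2 held in all 24 alternatives and that against NOS1 was lost in 6, and 31.9% of its span is shared with other genes.

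The kinases and the decarboxylase between HMGCS1 and FDPS did not pass. MVD, the decarboxylase that yields isopentenyl diphosphate, had a change of 0.28 ± 0.09 against VOS2 and 0.29 ± 0.09 against NOS1 (edgeR adjusted p = 0.0984 and 0.0776). MVK, mevalonate kinase, had 0.19 ± 0.11 and 0.02 ± 0.11, with 35.9 to 47.8 CPM in IBD and 34.9 to 47.9 CPM in the other 2 tables. PMVK, the next kinase, was the one sterol gene with a negative change in both comparisons, at -0.14 ± 0.08 and -0.20 ± 0.08 (adjusted p = 0.403 and 0.158). Its IBD libraries held 21.1, 23.1, 20.2 and 21.3 CPM against 23.3 to 24.8 CPM in VOS2. IDI1, the isomerase of isopentenyl diphosphate, was counted at only 3.30 to 7.74 CPM in the 12 libraries, and its change of 0.19 ± 0.18 against VOS2 did not pass (adjusted p = 0.635).

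From squalene to cholesterol, 4 of 10 tested enzymes rose against VOS2 and 6 of 10 against NOS1, with 0 lower in either. Of all genes, 2.32% and 2.8% rose in these comparisons, and 2.24% and 3.01% fell. FDFT1, squalene synthase and the first enzyme committed to sterols, stood at 283, 301, 325 and 336 CPM in IBD, 227, 202, 249 and 214 CPM in VOS2, with 272, 235, 222 and 259 CPM in NOS1. Every IBD library lay above all 8 others, the nearest being NOS1 library 1. The change was 0.51 ± 0.09 against VOS2 (edgeR adjusted p = 0.0036) and 0.36 ± 0.09 against NOS1 (adjusted p = 0.0276). These calls were lost in 1 and 10 of 24 alternatives.

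SQLE, squalene epoxidase, a rate-controlling step, stood at 228, 239.9, 269 and 278 CPM in IBD, 202, 210.2, 189.6 and 185 CPM in VOS2, with 195, 166, 175 and 188 CPM in NOS1. The IBD libraries lay above all others in the order 4, 3, 2, 1. The change was 0.51 ± 0.08 against NOS1 (edgeR adjusted p = 0.00273), a call that held in all 24 alternatives, and 0.39 ± 0.08 against VOS2 (adjusted p = 0.013), a call lost in 2 of 24. No other gene overlaps SQLE in GENCODE v29.

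Removal of the methyl groups of lanosterol is shared by MSMO1, the oxidase, NSDHL, the dehydrogenase, and HSD17B7, the ketoreductase. MSMO1 stood at 177, 158, 264 and 239.6 CPM in IBD, 154, 154, 139.9 and 153 CPM in VOS2, with 148, 124, 148 and 169.7 CPM in NOS1. IBD libraries 3 and 4 were far above the rest, while library 2 lay below NOS1 library 4. Its change of 0.53 ± 0.14 passed against NOS1 (edgeR adjusted p = 0.0381) and the change of 0.51 ± 0.14 against VOS2 fell just short (adjusted p = 0.0524). The call against NOS1 was lost in 14 of 24 alternatives.

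NSDHL stood at 90.1, 95.8, 103 and 111 CPM in IBD, 73.0, 74.2, 85.3 and 75.5 CPM in VOS2, with 78.1, 80.9, 83.9 and 74.0 CPM in NOS1. HSD17B7 stood at 50.2, 50.5, 63.6 and 63.6 CPM in IBD, 39.9, 42.9, 41.0 and 39.3 CPM in VOS2, with 48.0, 37.3, 39.2 and 45.0 CPM in NOS1. For both genes every IBD library lay above all 8 others. NSDHL changed by 0.40 ± 0.09 and 0.36 ± 0.09 (edgeR adjusted p = 0.0162 and 0.0277), and HSD17B7 by 0.51 ± 0.10 and 0.45 ± 0.10 (adjusted p = 0.0118 and 0.0224), against VOS2 and NOS1 in that order. In that order too, the calls of NSDHL were lost in 5 and 9 of 24 alternatives and those of HSD17B7 in 1 and 6.

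SC5D, the desaturase that acts near the end of the pathway, stood at 235, 239.9, 298 and 291 CPM in IBD, 201, 215, 199 and 235 CPM in VOS2, with 166, 170.4, 218 and 182 CPM in NOS1. IBD library 1 lay just above VOS2 library 4, and IBD was clear of NOS1 by more. The change passed against NOS1 at 0.55 ± 0.11 (edgeR adjusted p = 0.0103) and not against VOS2 at 0.36 ± 0.11 (adjusted p = 0.0784), and the call was lost in 2 of 24 alternatives.

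The other enzymes of this stretch did not pass in either comparison. LSS, lanosterol synthase, had 0.26 ± 0.08 against VOS2 and 0.20 ± 0.08 against NOS1 (edgeR adjusted p = 0.0959 and 0.169). DHCR7, the last reductase of the pathway, had 0.13 ± 0.09 and 0.24 ± 0.09. TM7SF2, another sterol reductase, had 0.12 ± 0.11 and 0.25 ± 0.11. CYP51A1, lanosterol demethylase, was counted at 0.265 to 1.15 CPM, so its change of 1.01 ± 0.36 against VOS2 rests on few counts and did not pass (adjusted p = 0.128).

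**Figure D2:**
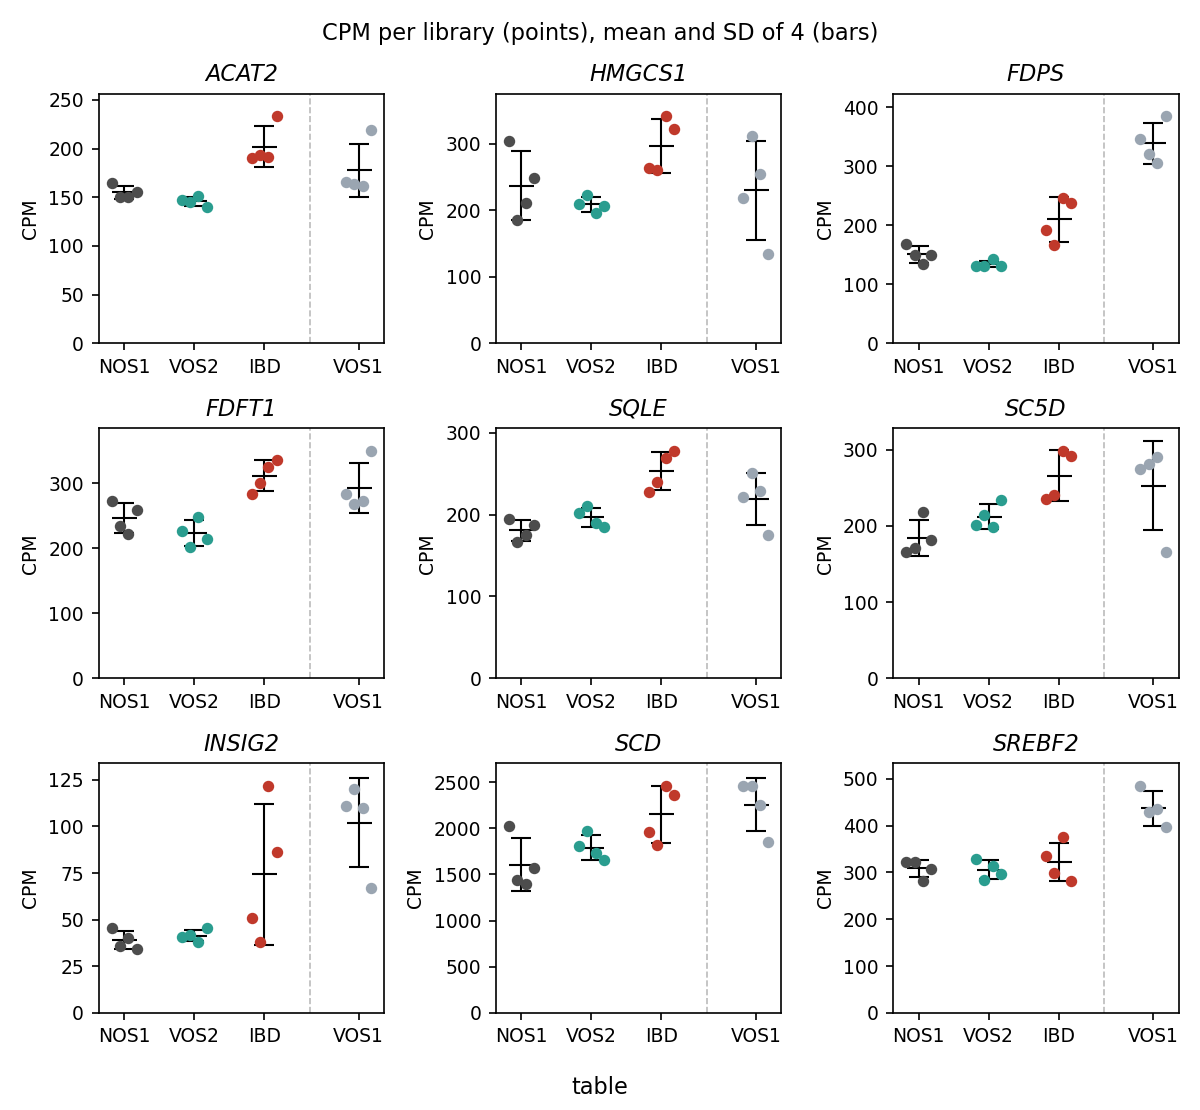
CPM (y axis, from 0) of 9 members in each library (points) of the 4 tables (x axis), with the mean and SD of 4 libraries as black bars and VOS1 apart to the right of the dashed line. ACAT2, FDFT1 and SQLE are higher in all 4 IBD libraries than in all 8 NOS1 and VOS2 libraries. Left of the dashed line, INSIG2 and SCD are highest in IBD libraries 3 and 4, and SREBF2 overlaps between the 3 tables.

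Among the genes that control SREBP, the transcripts of SREBF1, SREBF2 and SCAP lay near the other tables. SREBF2 stood at 334, 299, 375 and 281 CPM in IBD against 282 to 329 CPM in VOS2 and NOS1 together. SREBF1 stood at 91.8, 92.5, 89.4 and 76.3 CPM in IBD against 74.0 to 118 CPM. Their log2 fold changes against VOS2 were 0.10 ± 0.09 and -0.00 ± 0.10, and that of SCAP was -0.05 ± 0.11 (edgeR adjusted p = 0.593, 0.993 and 0.864). Against NOS1 the 3 changes were 0.09 ± 0.09, -0.08 ± 0.10 and -0.10 ± 0.11. These are mRNA levels, and the cleavage of the proteins was not measured.

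INSIG1 and INSIG2, which retain SCAP, varied widely between the IBD libraries, and INSIG1 is itself a known SREBP target. INSIG2 stood at 50.9, 38.0, 122 and 86.5 CPM in IBD, 40.5, 41.6, 38.3 and 45.4 CPM in VOS2, with 45.4, 36.0, 40.2 and 34.5 CPM in NOS1. IBD libraries 3 and 4 were far above all others and library 2 lay within the range of NOS1 and just below that of VOS2. The change of 0.95 ± 0.26 passed against NOS1 (edgeR adjusted p = 0.0431) and not against VOS2 at 0.87 ± 0.26 (adjusted p = 0.0705), and the call against NOS1 was lost in 15 of 24 alternatives.

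INSIG1 stood at 97.3, 85.3, 170.2 and 140.3 CPM in IBD, 80.1, 78.8, 75.3 and 85.0 CPM in VOS2, with 161, 63.1, 70.3 and 113 CPM in NOS1. IBD libraries 3 and 4 and NOS1 libraries 1 and 4 were the highest, so IBD lay above VOS2 but overlapped NOS1. Its changes of 0.66 ± 0.25 and 0.31 ± 0.25 did not pass (edgeR adjusted p = 0.165 and 0.508).

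Neither transport gene passed. STARD4, which carries cholesterol between membranes, stood at 72.1, 71.2, 107 and 97.9 CPM in IBD against 60.0 to 75.8 CPM in VOS2 and 50.8 to 70.6 CPM in NOS1, again with IBD libraries 3 and 4 high. Its change was 0.38 ± 0.14 against VOS2 and 0.46 ± 0.14 against NOS1 (edgeR adjusted p = 0.142 and 0.0662). ABCA1, the cholesterol exporter and a target of the sterol sensor LXR, was low throughout at 0.892 to 2.26 CPM, with changes of -0.37 ± 0.27 and -0.19 ± 0.27.

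In the fatty acid arm 1 of 8 tested genes, SCD, rose against NOS1 (2.8% of all genes) and 0 against VOS2 (2.32% of all genes). SCD, which makes oleate from stearate, stood at 1963, 1819.8, 2459 and 2363 CPM in IBD, 1806, 1974, 1729.7 and 1653 CPM in VOS2, with 2025, 1438, 1395 and 1565 CPM in NOS1. IBD libraries 3 and 4 were the highest of the 12, and libraries 1 and 2 lay within the range of NOS1 and VOS2. The change was 0.45 ± 0.12 against NOS1 (edgeR adjusted p = 0.0414), a call lost in 14 of 24 alternatives, and 0.29 ± 0.12 against VOS2 (adjusted p = 0.199). Against VOS2 the count of 0 of 8 fatty acid genes compares with 3 higher at an unadjusted p under 0.05 (8.86% of all genes), 1 with DESeq2 (3.88% of all genes) and 0 with limma.

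Neither enzyme that supplies acetyl-CoA passed, though the changes of both were above 0 in each comparison. ACLY, which cuts citrate, stood at 500.2, 537, 504 and 485 CPM in IBD against 440.1 to 478 CPM in VOS2, ranges that did not overlap, and 426 to 499 CPM in NOS1, which overlapped IBD. Its changes were 0.18 ± 0.07 and 0.17 ± 0.07 (edgeR adjusted p = 0.146 and 0.152). ACSS2, which activates acetate, stood at 263, 232, 353 and 322 CPM in IBD against 234 to 259.8 CPM in VOS2, and 221 to 280.2 CPM in NOS1, and IBD libraries 3 and 4 lay above both ranges. Its changes were 0.29 ± 0.12 and 0.29 ± 0.12 (adjusted p = 0.189 and 0.15).

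The committed steps of fatty acid synthesis did not pass in either comparison. ACACA, which makes malonyl-CoA, stood at 130.4, 140.2, 103 and 105 CPM in IBD against 113 to 173 CPM in VOS2 and NOS1 together, lowest in IBD libraries 3 and 4, where most sterol genes were highest. FASN, fatty acid synthase, stood at 796, 846, 689 and 605 CPM in IBD against 616 to 866 CPM, and library 4 alone lay below that range. The changes against VOS2 were -0.15 ± 0.12 for ACACA and 0.15 ± 0.11 for FASN (edgeR adjusted p = 0.551 and 0.545).

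Of the elongases and desaturases other than SCD, none passed in either comparison. ELOVL5, which lengthens polyunsaturated fatty acids, had -0.03 ± 0.07 against VOS2, and FADS2, the desaturase at the start of that route, had -0.06 ± 0.16. Against NOS1 FADS2 had -0.32 ± 0.16 (edgeR adjusted p = 0.248), and without NOS1 library 3 it was called lower (adjusted p = 0.0364), the one lower call of a member in any alternative. ELOVL6, which lengthens palmitate, was low in most libraries and held 23.1, 7.30, 6.09 and 17.1 CPM in NOS1, so that its 4 static libraries spanned more than IBD at 9.59 to 14.7 CPM. FADS2, INSIG1 and HMGCS1 were likewise highest within NOS1 in libraries 1 and 4.

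**Figure D3:**
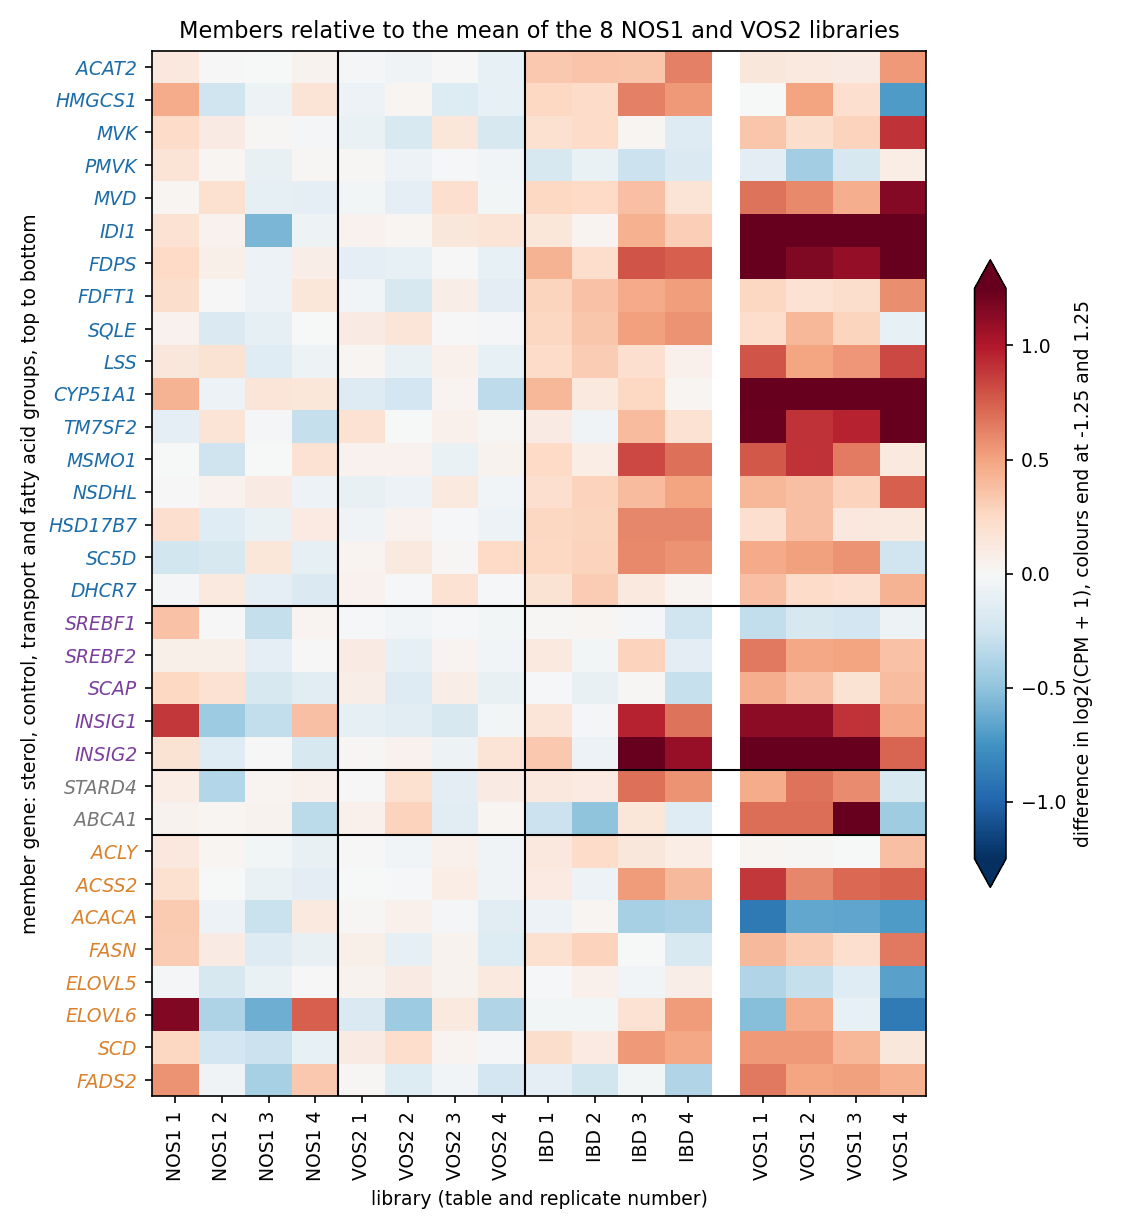
Difference in log2(CPM + 1) of each of 32 members (rows, grouped) from the mean of the 8 NOS1 and VOS2 libraries, in each library (columns), with VOS1 apart at the right. Most sterol genes are red across the 4 IBD columns, PMVK is blue, the fatty acid rows are mixed, and IBD libraries 3 and 4 are darker than 1 and 2 for HMGCS1, FDPS, MSMO1, INSIG1, INSIG2 and STARD4.

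In each IBD library the median of the sterol arm lay above its range in the NOS1 and VOS2 libraries. The median difference from the mean of the 8 NOS1 and VOS2 libraries, over the 16 sterol genes with a mean of 1 CPM or more, was 0.25, 0.27, 0.42 and 0.51 in IBD libraries 1 to 4 on the log2(CPM + 1) scale. The 8 libraries themselves spanned -0.08 to 0.14. The fatty acid genes gave 0.05, 0.05, 0.07 and 0.08 in IBD, within the range of -0.22 to 0.29 of the 8 others. Of the 17 sterol genes, 10, 9, 13 and 10 exceeded all 8 NOS1 and VOS2 libraries in IBD libraries 1 to 4. The share of all genes that did so was not computed, so these counts have no background beside them.

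Medians of inflammatory genes were higher in all IBD libraries than in NOS1 and VOS2, and those of hypoxia genes in IBD libraries 1, 3 and 4. A list of 18 NF-kB target genes had medians of 1.40, 1.75, 1.59 and 1.71 in IBD libraries 1 to 4, against -0.34 to 0.90 in the others. Of the 18, 16 rose against VOS2 and 13 against NOS1, where 2.32% and 2.8% of all genes rose. A list of 17 hypoxia and glycolysis genes had medians of 0.58, -0.05, 1.47 and 1.20, and 11 of the 17 rose in each comparison, beside the same shares of all genes. In IBD library 2 the hypoxia median lay within the range of -0.20 to 0.40 of the 8 NOS1 and VOS2 libraries. Its sterol median of 0.27 lay above all 8. Both medians were larger in IBD libraries 3 and 4 than in 1 and 2, but within each pair their order was opposite. The part of hypoxia in the sterol levels was not tested.

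**Figure D4:**
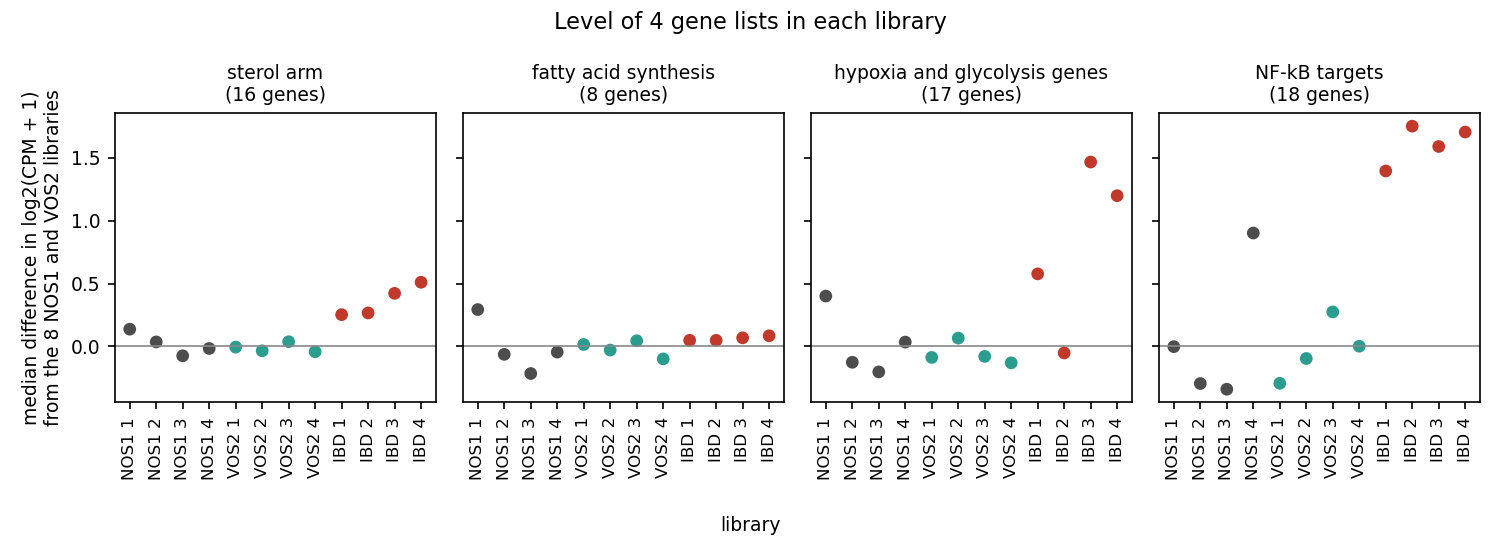
Median difference in log2(CPM + 1) from the 8 NOS1 and VOS2 libraries (y axis) of 4 gene lists in each of 12 libraries (x axis). The sterol arm lies at 0.25 to 0.51 in IBD and the fatty acid genes at 0.05 to 0.08, while the hypoxia genes run from -0.05 to 1.47 among the 4 IBD libraries.

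Without IBD libraries 3 and 4, 2 members remained past the threshold in each comparison, with 222 and 155 genes called over all in place of 674 and 858. These were ACAT2 and FDPS against VOS2, at 0.41 and 0.43 (edgeR adjusted p = 0.0101 and 0.0259), and ACAT2 and SQLE against NOS1, at 0.32 and 0.39 (adjusted p = 0.0473 and 0.0458). All 7 and all 10 called members kept a positive change, of 0.27 to 0.43 and of 0.20 to 0.39. Without NOS1 libraries 1 and 4, 10 members rose against VOS2 and 8 against NOS1, with 930 and 362 genes called over all. The count against VOS2 fell to 4 without VOS2 library 4 and rose to 11 without IBD library 2. The genes called over all were 316 and 961 there. The count against NOS1 fell to 3 without IBD library 3 or 4 and to 5 without NOS1 library 4. In these fits 351, 305 and 333 genes were called over all, so both counts fell there. They did not move together in every fit. Without IBD library 1, 11 members rose against NOS1 while the calls over all genes fell to 547. Without VOS2 library 3, 7 members rose against VOS2 with 367 genes called over all.

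VOS2 and NOS1 were compared to ask what the swing coded VOS2 does to these genes. In edgeR, 0 of 32 members rose or fell, as did 0% of all genes in each direction. At an unadjusted p under 0.05, 1 member was higher (ELOVL5, 0.15 ± 0.07) and 1 lower (CYP51A1, -0.92 ± 0.36), against 3.55% and 6.32% of all genes, and DESeq2 and limma called 0 members. The median change was -0.06 for the sterol genes and -0.04 for the fatty acid genes. ELOVL5 alone lay wholly higher in VOS2, at 302 to 320.3 against 254 to 294 CPM, and 0 members lay wholly lower, against 2.82% and 1.76% of all genes. Over all genes the counts were 1457 at an unadjusted p under 0.05, 6 with DESeq2 and 0 with limma, and 376 without NOS1 library 3.

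Other genes of the pathway, taken from lists that extend the set, are given beside the shares of all genes above, which were 2.32% higher and 2.24% lower against VOS2 and 2.8% and 3.01% against NOS1. Of 20 tested genes of sterol handling and SREBP regulation, 1 rose and 1 fell against VOS2, and 1 rose and 0 fell against NOS1. SOAT2, which esterifies cholesterol in enterocytes, stood at 96.1, 96.6, 115 and 109 CPM in IBD, 69.9, 73.3, 61.1 and 62.0 CPM in VOS2, with 61.6, 79.7, 87.6 and 56.2 CPM in NOS1, with every IBD library above all 8 others. SOAT2 changed by 0.68 ± 0.13 and 0.57 ± 0.13 (edgeR adjusted p = 0.00961 and 0.024). MYLIP, a ubiquitin ligase for lipoprotein receptors induced by LXR, changed by -0.43 ± 0.11 against VOS2 (adjusted p = 0.0383).

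Among 22 tested genes of fatty acid and glycerolipid metabolism, 0 rose and 2 fell against VOS2, and 1 rose and 4 fell against NOS1. GPAM, which starts glycerolipid synthesis, stood at 55.8, 62.3, 40.5 and 43.8 CPM in IBD against 74.3 to 99.5 CPM in VOS2 and NOS1 together, and its ranges did not overlap. It changed by -0.79 ± 0.12 and -0.63 ± 0.12 (edgeR adjusted p = 0.00215 and 0.0111). ME1, malic enzyme, a source of NADPH for lipid synthesis, changed by -0.60 ± 0.10 and -0.40 ± 0.10 (adjusted p = 0.00384 and 0.0342). MID1IP1, an activator of acetyl-CoA carboxylase, and ACSL1, an acyl-CoA synthetase, fell against NOS1, with changes of -0.61 and -1.76 (edgeR adjusted p = 0.0185 and 0.0271), and both were high in NOS1 libraries 1 and 4. LPIN1, a phosphatidate phosphatase, rose against NOS1 by 0.36 (adjusted p = 0.0362).

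Promoter sequence was available for 31 of the 35 members in the RefSeq table of build GRCh38.p14, and ACAT2, FDFT1, SQLE and FASN were not matched. The 250 bases before each listed start were searched on both strands for CCAAT, the box bound by NF-Y, a known partner of SREBP, for TCACNCCAC, a form of the sterol regulatory element, and for CACGTG, the E-box that SREBP can also bind. CCAAT was found in 22 of 31 members (71.0%) and in 37.0% of 27305 genes. By arm it was found in 14 of 16 sterol genes, 5 of 8 fatty acid genes, 2 of 5 control genes and 1 of 2 transport genes. TCACNCCAC was found in 1 of 31, SREBF2, against 1.09% of genes, and CACGTG in 5 of 31 (16.1%), namely ABCA1, ELOVL5, INSIG1, SC5D and SCAP, against 7.73%. A gene was counted if the letters lay before any of its listed starts. At the first listed start alone, CCAAT was found in 19 of 31 members and in 33.0% of genes. Base composition was not matched, and a match of letters is not a bound site.

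The 150 bases before the first listed start are shown for 5 sterol genes that rose in IBD and for SREBF2, the gene of the factor known for this arm, 5′ to 3′ on the strand of the gene. They lie at chr5:43313413-43313562 (minus strand) for HMGCS1 and, on the plus strand, at chr1:155308716-155308865 for FDPS, chr4:165327519-165327668 for MSMO1, chrX:152830913-152831062 for NSDHL, chr1:162790552-162790701 for HSD17B7 and chr22:41832955-41833104 for SREBF2. Capitals mark CCAAT on either strand (ATTGG on the other) and, in SREBF2, the element TCACCCCAC as well.
HMGCS1: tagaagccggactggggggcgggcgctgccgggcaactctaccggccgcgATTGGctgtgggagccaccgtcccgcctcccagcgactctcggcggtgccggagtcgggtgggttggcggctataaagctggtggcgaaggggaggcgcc
FDPS: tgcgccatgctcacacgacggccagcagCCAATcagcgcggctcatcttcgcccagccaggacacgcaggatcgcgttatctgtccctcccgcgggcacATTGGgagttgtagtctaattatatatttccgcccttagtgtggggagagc
MSMO1: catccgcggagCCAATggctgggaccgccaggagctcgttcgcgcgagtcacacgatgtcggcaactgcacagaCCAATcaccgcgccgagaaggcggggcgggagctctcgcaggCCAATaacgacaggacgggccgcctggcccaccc
NSDHL: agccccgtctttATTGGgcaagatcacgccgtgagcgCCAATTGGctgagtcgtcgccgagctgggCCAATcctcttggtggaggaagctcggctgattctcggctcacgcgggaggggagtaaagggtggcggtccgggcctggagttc
HSD17B7: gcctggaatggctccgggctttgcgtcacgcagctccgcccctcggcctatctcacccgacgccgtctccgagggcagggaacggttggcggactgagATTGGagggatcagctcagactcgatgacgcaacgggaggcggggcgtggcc
SREBF2: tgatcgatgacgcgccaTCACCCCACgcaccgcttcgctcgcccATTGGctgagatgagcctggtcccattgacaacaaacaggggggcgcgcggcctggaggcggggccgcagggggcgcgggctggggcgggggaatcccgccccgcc

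MSMO1 held 3 CCAAT matches in these 150 bases, FDPS 2, and HMGCS1, HSD17B7 and SREBF2 1 each. NSDHL held 4, of which 2 overlap in 1 palindromic run that reads as CCAAT on one strand and on the other.

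VOS1 is given apart because its counts come from shorter gene features. Among the 32 members with a length in every table its implied gene lengths ran from 4.05% to 75.1% of those in the other tables. For 30 of the 32 members with 20 or more counts, the mean CPM in VOS1 was 0.627 to 2.10 times the mean of the 12 other libraries, with a median of 1.24, against a median of 0.889 over 15274 genes. Treatment and counting cannot be told apart in these ratios.

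For 5 members the tables differed far more. FADS1, the desaturase that makes arachidonate, had 0 counts in all 12 libraries of the other tables, which allows up to 0.0138 CPM over the 12, and stood at 187, 207, 191 and 190.1 CPM in VOS1. EBP, a sterol isomerase, stood at 92.4, 81.5, 81.0 and 97.1 CPM in VOS1 and had 2 counts elsewhere, and GGPS1, which makes geranylgeranyl diphosphate, stood at 20.4, 20.6, 21.1 and 13.1 CPM and had 1 count elsewhere. IDI1 stood at 172, 199, 193 and 147 CPM in VOS1, 30.4 times its mean elsewhere, and CYP51A1 at 34.4, 34.4, 33.7 and 21.5 CPM, 45.3 times. IDI1 and CYP51A1 are among the 17 tested sterol genes, and their fold changes rest on these low counts.

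In GENCODE v29 on hg38, these genes differ in how much of their span other genes share. FADS1 (chr11:61799625-61829318, minus strand) lies wholly inside FADS2, CYP51A1 (chr7:92112151-92134803, minus strand) shares 99.96% of its span, GGPS1 (chr1:235327350-235344532, plus strand) 98.0% and IDI1 (chr10:1039152-1049170, minus strand) 50.4%. The implied length of CYP51A1 in NOS1, VOS2 and IBD was 49819 bases against a span of 22653, so its share may differ in those tables. EBP (chrX:48521158-48528716, plus strand) shares 4.33%. FADS2 shares 45.7% of its span and stood at 22.4 to 45.0 CPM in the 12 libraries. No label states how overlapping reads were assigned, and the part of overlap was not tested.

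**Figure D5:**
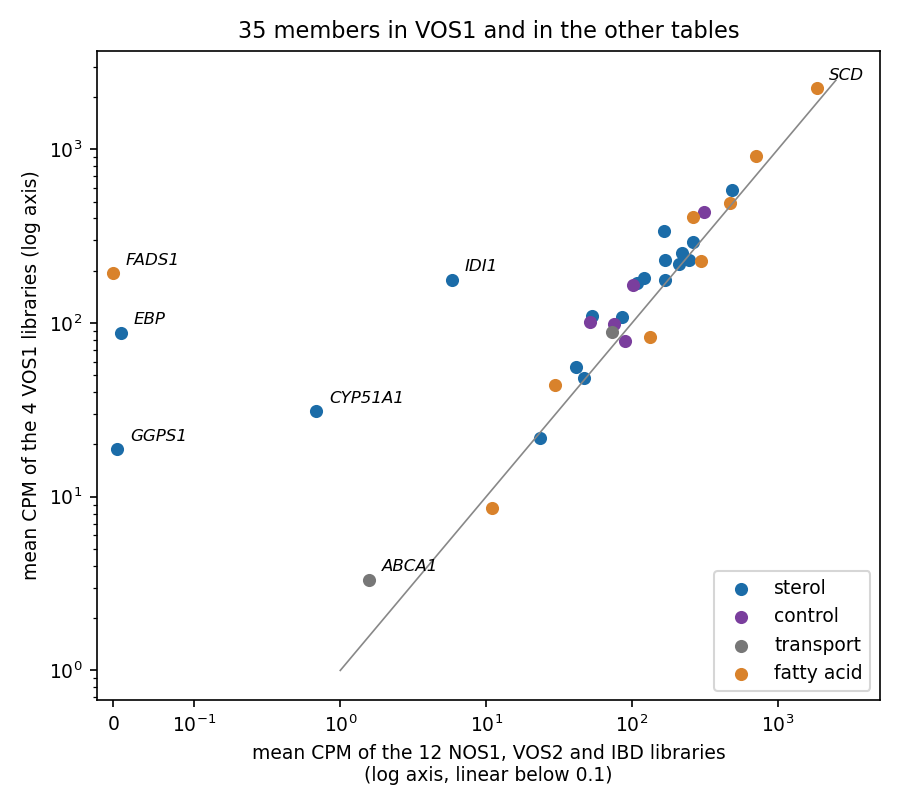
Mean CPM of each of the 35 members in the 4 VOS1 libraries (y axis, log) against the mean of the 12 NOS1, VOS2 and IBD libraries (x axis, log, linear below 0.1), coloured by group, with the line of equality. FADS1, EBP, GGPS1, CYP51A1 and IDI1 lie far above the line and the other 30 near it.

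Per length, which only the VOS1 table gives over short features, the FPKM (fragments per kilobase, scaled likewise for depth) of the members in VOS1 ran from 0.293 to 429.9. SCD was first at 429.9 ± 54.3 FPKM (SD, n = 4), followed by FASN at 98.7 ± 13.5, ACLY at 94.7 ± 12.9, FDPS at 91.2 ± 9.37, DHCR7 at 84.7 ± 6.32 and MSMO1 at 81.3 ± 17.7. The ranges of these last 5 overlap, so their order among themselves is within the spread. The regulators were intermediate, with SREBF2 at 54.2 ± 4.56 FPKM and SREBF1 at 9.61 ± 0.682 FPKM, and ELOVL6 and ABCA1 were last at 1.18 ± 0.543 and 0.293 ± 0.17 FPKM.

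Within VOS1, library 4 differed from the other 3 in opposite ways for different members. SC5D stood at 275, 281, 291 and 165 CPM, HMGCS1 at 219, 312, 255 and 135 CPM and MSMO1 at 254, 279, 233 and 161 CPM, each lowest in library 4. ACAT2 stood at 166, 164, 162 and 219 CPM, MVD at 162, 154, 139 and 225 CPM and FASN at 920.3, 862, 803 and 1094 CPM, each highest in library 4. A mean over VOS1 therefore joins unlike libraries for these 6 genes.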

How the data were processed

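The members and the gene lists were chosen with earlier results of these data known. The libraries were made from polyT-purified mRNA, per the labels' protocols, naming no step that marks the strand. Per the submitters' processing notes, STAR 2.7.11a and featureCounts 2.0.6 were used with hg38, beside FastQC 0.12.1, fastp 0.23.4 and DESeq2 1.42.0. The authors deposited raw counts per gene and FPKM values, in 4 tables each, and 0 of their value columns were left unused. The implied gene length (counts over FPKM) agreed within 1% among NOS1, VOS2 and IBD for 100.0% of 13046 genes, and for 27 of the 32 members with a length equalled the GENCODE v29 gene span within 1%. ACAT2, HMGCS1, PMVK, CYP51A1 and SC5D differed by more, so their overlap with other genes is less certain.

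CPM was computed as the count over the library total, times 1000000. The counts of the 12 NOS1, VOS2 and IBD libraries were fitted in 1 model in R 4.3.3 with edgeR 4.0.16 (TMM scaling, default filter by group, quasi-likelihood test, 14773 genes, Benjamini-Hochberg adjustment over all of them, threshold 0.05), a procedure tested on simulated data. Standard errors were taken as the log2 fold change over the square root of F. VOS1 entered only an alternative fit of 16 libraries. Alternatives used DESeq2 1.42.0, limma 3.58.1 on log2(FPKM + 1) and log2(FPKM + 0.1), other scalings and filters, each group pair alone, a replicate block, and libraries left out. All 35 members were named, and of other lists up to 4 genes past the threshold with the smallest p in each comparison. Replicate numbers did not pair the libraries: 4 of 12 correlations of same-numbered deviations exceeded 0.1 (range -0.23 to 0.19). Libraries of a group differed beyond sampling noise. Zero limits and counts cover counting error only.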

Additional observations from a re-analysis of the deposited data

Results flagged for a closer look

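A gap of 1 library from the other 3 of its table, past Dixon's 95% value for 4 samples, occurred in 10 of 128 sets of 4 CPM values, where chance alone would give about 6.4. VOS1 library 4 gave 5 of the 10: ACAT2 at 219 CPM (others 162 to 166), MVK at 76.4 (47.1 to 51.6), ACLY at 594 (455 to 465), CYP51A1 at 21.5 (33.7 to 34.4) and SC5D at 165 (275 to 291). In IBD, ACAT2 stood at 233 CPM in library 4 (others 189.9 to 193). In VOS2 library 3, FDPS stood at 142 CPM (130.7 to 132) and MSMO1 at 139.9 (153 to 154). In NOS1, STARD4 stood at 50.8 CPM in library 2 (67.7 to 70.6) and ABCA1 at 1.12 CPM in library 4 (1.71 to 1.75).

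VOS1, which enters no comparison, showed 3 members that the other tables lack: FADS1 at a mean of 194 CPM (0 in all 12 other libraries), EBP at 88.0 CPM (at most 0.0595 elsewhere) and GGPS1 at 18.8 CPM (at most 0.057 elsewhere).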

How the results depend on the processing

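No called member changed sign under any of the 24 alternatives. CYP51A1, uncalled, has 23, since the minimum of 1 CPM in 4 libraries leaves it out. The 7 members called against VOS2 kept their call in 149 of 168 alternative fits, and the 10 called against NOS1 in 164 of 240. Members called against VOS2 numbered 7, and 11 with no filter on low counts, 12 with DESeq2, 2 without IBD libraries 3 and 4, and 4 to 11 with 1 library left out. Against NOS1 they numbered 10, and 3 with limma on log2(FPKM + 1), 4 with log2(FPKM + 0.1), 3 with the 2 groups alone, 2 without IBD libraries 3 and 4, and 3 to 12 with 1 library left out. For VOS2 against NOS1 the count was 0 throughout.

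Over all genes, the 674 calls against VOS2 became 1072 with DESeq2, 418 with the replicate block, 222 without IBD libraries 3 and 4, and 316 to 961 with 1 library left out (316 to 409 without VOS2 library 4, 1 or 3 or IBD library 4 or 3). The 858 against NOS1 became 1294 with no filter, 1335 with DESeq2, 349 and 397 with limma, 233 with the 2 groups alone, 155 without IBD libraries 3 and 4, 362 without NOS1 libraries 1 and 4, and 305 to 1351 with 1 library left out. The 0 of VOS2 against NOS1 became 255 with no filter, 6 with DESeq2, 2 without IBD libraries 3 and 4, and 0 to 376 (376 without NOS1 library 3). With limma on log2(FPKM + 1) the calls against VOS2 split into 207 higher and 312 lower, against 343 and 331. The causes were not tested.

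With the replicate number as a block, 6, 7 and 0 members were called in the 3 comparisons. Leaving out libraries leaves fewer degrees of freedom. The 4 libraries a group, unknown agent and dose, the untied swing codes, unknown handling of overlapping reads and the shorter features of VOS1 limit what these values show.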
